A study of Arabidopsis thaliana with 16 samples.

Results

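The genes described here are COR15A (AT2G42540), COR15B (AT2G42530), LEA4-5 (AT5G06760) and HIS1-3 (AT2G18050), stress genes of Arabidopsis thaliana. Each was read by 1 probe set annotated to that gene alone, so the 4 genes are 4 of the 22746 probe sets on the array and of the 13513 with a single gene. They were chosen from these arrays for their levels over the 6 groups, as stress genes that moved in opposite directions under LED light. Their differences from white light are therefore given as a description, with no test. In those values HIS1-3 lay above white light and COR15B below it on all 12 LED arrays, COR15A lay below it on 10, and LEA4-5 lay above it on 9.

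The series measured RNA on 16 Affymetrix arrays of whole Col-0 seedlings, 5 days old, to ask what part the far-red photoreceptor phytochrome A takes in the response to shade. The genotypes were the wild type (WT) and phyA-211, the only mutant line, which lacks a working phytochrome A gene and has the same Col-0 background. All seedlings had grown in continuous white light and then spent 24 h in 1 of 3 lights. White light, given to 2 WT and 2 phyA samples, had about 45 µmol m-2 s-1. The shade LEDs gave 13 of red, 3.5 of blue and 21 of far-red in the same unit, with red over far-red (R:FR) given as 0.7. The stated red and far-red values themselves give a slightly lower ratio. In strong shade, also from LEDs, red fell to 3, far-red went up to 30, blue stayed at 3.5 and R:FR was 0.1. Each LED light was given to 3 WT and 3 phyA samples. The series' design text calls the replicates biological, but no source says that they were grown as separate batches. The p-values therefore cover the spread between samples as deposited, which may be partly technical.

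Plants exposed to cold or water shortage make small, very hydrophilic proteins of the late embryogenesis abundant (LEA) class, which also accumulate in drying seeds and are thought to protect membranes and enzymes. COR15A and COR15B encode closely related LEA proteins of the chloroplast that protect membranes in freezing, and COR15A is a classic target of the CBF cold-response factors. LEA4-5 encodes a protein of another LEA group that accumulates under water deficit. HIS1-3 encodes a linker histone variant, a protein that binds DNA between nucleosomes, and unlike the main linker histones it is induced by drought and by abscisic acid (ABA), the plant's drought hormone. COR15A and COR15B are direct neighbours on chromosome 2 in the TAIR10.1 gene table, and since their sequences are alike, whether their probe sets share signal was not tested.

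The arrays had median intensities between 13.5 and 15.1, and arrays of a group correlated at r = 0.979 to 0.994 over all probe sets. The third array labelled phyA shade was closest to an array of phyA strong shade (r = 0.994, against at most 0.986 within its own group), and the third array labelled phyA strong shade was closest to an array of phyA shade (0.992 against at most 0.983). Results that rest on them are given with and without both. The annotation lists 0 probe sets for PHYA alone, so the genotype labels could not be checked on the mutated gene itself. Of 3 measured root markers, all 3 were lower in every LED group than in white light except PYK10, not called in WT shade. Of 9 green shoot markers listed only RCA was measured, so the check of the tissue label rested on 1 gene. RCA was bright in all groups (mean log2 intensity 10.4 to 12.1). It was lower in phyA than in WT by 1.06 in shade and 1.49 in strong shade. No seed storage marker of the 11 listed was measured. The part of tissue makeup in the results below was not tested, and in whole seedlings fewer cells of a type and less RNA per cell cannot be told apart.

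HIS1-3 was brighter than 32.4% to 36.8% of probe sets in white light and brighter than 88.2% to 95.9% of probe sets on the LED arrays. In WT white light it stood at a log2 intensity of 2.70 and 2.81, and in phyA white light at 2.60 and 2.83. In WT it reached 8.45, 8.14 and 8.06 in shade and 7.55, 7.36 and 7.21 in strong shade. In phyA it reached 8.74, 8.69 and 7.38 in shade and 8.04, 7.98 and 8.60 in strong shade. All 12 LED arrays therefore lay above all 4 white-light arrays, a pattern that 15.9% of all probe sets shared. As a description, the group means differed from white light by 5.46 ± 0.309 in WT shade (log2 difference ± SE), measured from a white-light level at which RMA compresses changes. The difference was 4.62 in WT strong shade, 5.56 in phyA shade and 5.49 in phyA strong shade. Leaving out the third phyA arrays moved the phyA shade value to 6.002.

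COR15B went the other way on every LED array. It stood at 5.47 and 5.33 in WT white light and at 5.58 and 5.90 in phyA white light. In shade it was 5.24, 3.69 and 3.84 in WT and 5.16, 3.66 and 3.00 in phyA. In strong shade it was 3.11, 3.32 and 3.39 in WT and 3.39, 2.96 and 3.75 in phyA. Its 12 LED arrays all lay below the lowest white-light array, as those of 16.1% of all probe sets did, but the first shade array of each genotype only just did so. The log2 differences from white light were -1.14 in WT shade, -2.13 in WT strong shade, -1.80 in phyA shade and -2.37 in phyA strong shade, with an SE of 0.495 each.

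COR15A, its neighbour, was low on 10 of the 12 LED arrays and high on the other 2. In white light it stood at 5.73 and 5.42 in WT and at 5.10 and 5.71 in phyA. In shade it was 6.05, 3.11 and 3.32 in WT and 6.37, 3.77 and 3.47 in phyA. The first shade array of each genotype was thus above every white-light array, and the other shade arrays were below all of them. In strong shade COR15A was 3.26, 2.92 and 3.82 in WT and 3.04, 2.92 and 3.94 in phyA, with no array near the white-light level. Its log2 differences from white light were -2.24 and -2.11 in strong shade in WT and phyA (SE 0.805 each), with groups that did not overlap, and -1.41 and -0.87 in shade, with groups that did. Leaving out 1 array at a time moved the shade values between -2.36 and -0.89 in WT and between -1.79 and -0.34 in phyA, with the lowest of each reached without the first shade array.

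LEA4-5 was dim on most arrays, bright on 3 and in between on 1. In white light it stood at 2.44 and 2.66 in WT and at 2.41 and 2.73 in phyA. In shade it was 6.04, 3.06 and 3.15 in WT and 5.96, 5.66 and 2.59 in phyA. In strong shade it was 3.09, 2.48 and 3.16 in WT and 2.69, 2.89 and 4.02 in phyA. On 9 of 12 LED arrays it lay above all white-light arrays, though by little on most of them. The log2 differences from white light were 1.53 in WT shade and 2.16 in phyA shade, and 0.36 and 0.63 in strong shade, with an SE of 0.883 each. Without the first shade array the WT shade value was 0.55, and leaving out 1 array at a time moved the phyA shade value of LEA4-5 between 1.55 (without the first) and 3.23 (without the third). The phyA shade group overlapped white light through the third array, and both strong shade groups overlapped it too.

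**Figure D1:**
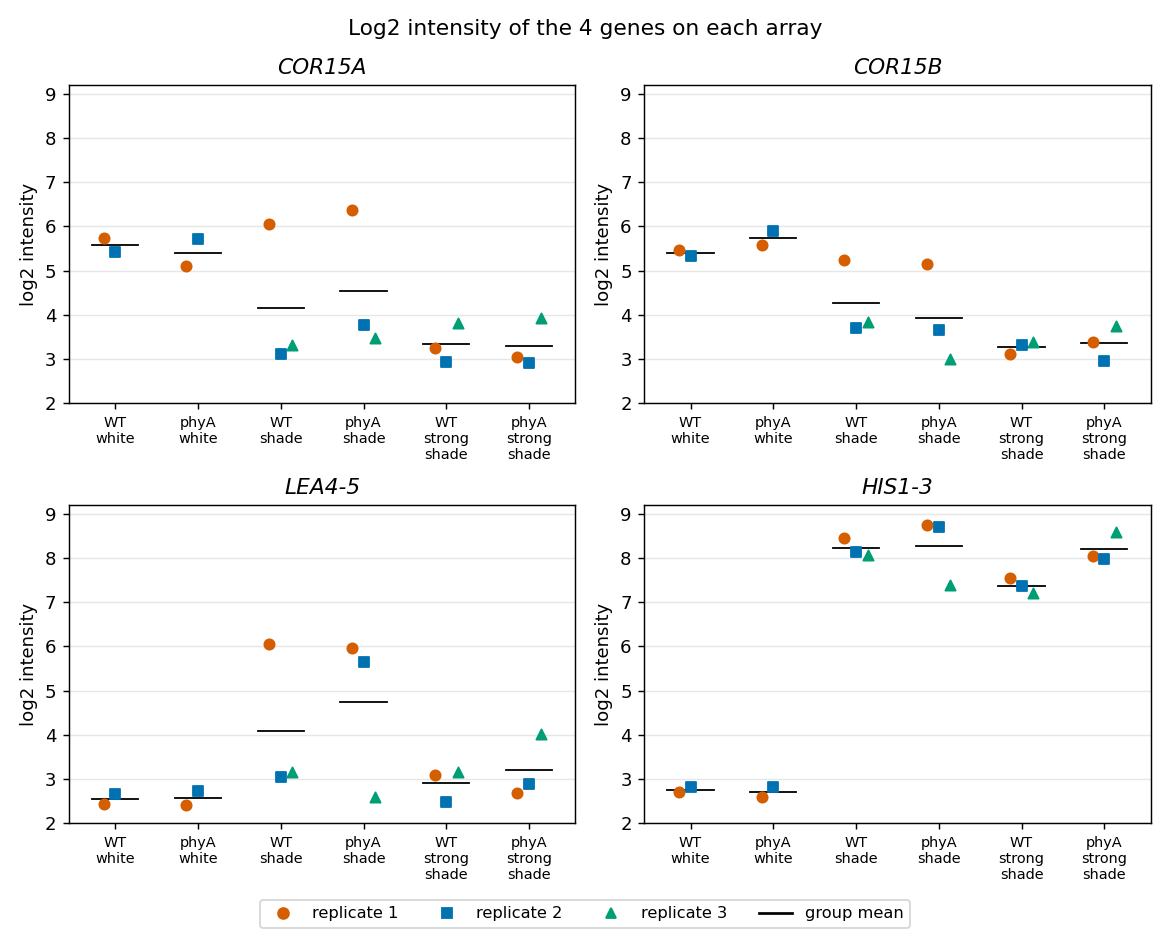
Log2 intensity (vertical axis) of the 4 genes on each of the 16 arrays, by genotype and light (horizontal axis), with replicate numbers as colours and shapes and group means as black bars. HIS1-3 lies above 7 on all 12 LED arrays and below 3 in white light, while COR15A and LEA4-5 reach about 6 on the first shade array of each genotype.

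**Figure D2:**
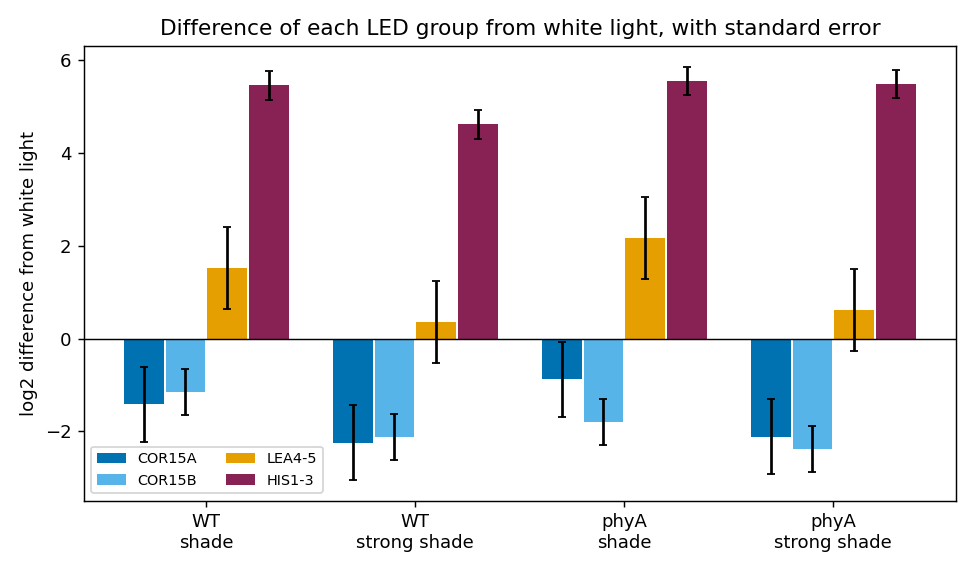
Log2 difference of each LED group from white light of the same genotype (vertical axis) for the 4 genes, with bars as the difference of group means and whiskers as the limma standard error. HIS1-3 is higher by 4.62 to 5.56 in the 4 groups and both COR15 genes are lower in all 4, while the whiskers of LEA4-5 in strong shade include 0.

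In comparisons that share white-light samples within a genotype, the background was high. Over all probe sets, limma called 36.4% in WT shade against white light, 39.2% in WT strong shade, 40.8% in phyA shade and 42% in phyA strong shade (adjusted p under 0.05), and 55.9%, 58.5%, 59.3% and 58.4% had groups that did not overlap. Of the 4 genes, 3 had groups that did not overlap in WT shade, 3 in WT strong shade, 2 in phyA shade and 3 in phyA strong shade. Nothing is read from these counts, because the genes were chosen on the same difference. White light and the LED lights also differed in lamp and in total light, so ratio, lamp and light level cannot be told apart there.

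The spread within shade was the main feature of 3 of the 4 genes. The first WT shade array exceeded the higher of arrays 2 and 3 by 2.73 for COR15A, 1.40 for COR15B and 2.89 for LEA4-5 (log2 differences). In phyA shade the first array did so by 2.60 for COR15A and 1.50 for COR15B, but only by 0.30 for LEA4-5, whose second array was high as well. For HIS1-3 these gaps were 0.31 and 0.05. The same number on both genotypes' arrays is all that the labels say of a link between them, and whether the 2 samples were grown, treated or processed together is not given. The pattern was noticed in the values and is a description of these arrays.

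Few other probe sets showed it. Counting those higher on the first array than on both others by over 0.5 in each genotype, a margin chosen after the values were seen, gave 28 of 22746 probe sets (0.123%), of which 14 have a single gene. COR15A and COR15B were among the 14. The others, named after their values were seen, included PUB19, which encodes a ubiquitin ligase of the ABA and drought response, with gaps of 1.51 in WT and 1.11 in phyA. AT3G17520, an LEA gene, had gaps of 1.70 and 0.67, and AT5G26200 had gaps of 1.19 and 0.89. Lower by the same margin in both genotypes were 11 probe sets.

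Genotypes were compared within each light to ask whether the levels depend on phytochrome A. In white light the 4 genes differed between phyA and WT by at most 0.34 on the log2 scale. The limma test called 0 of the 4 (0 at unadjusted p under 0.05, lowest adjusted p = 0.968), against 0.154% of all probe sets. COR15B alone had groups that did not overlap, with both phyA arrays above both WT arrays, against 39.6% of all probe sets in either direction. In shade COR15A stood at 0.38 higher in phyA (95% interval -1.16 to 1.91), COR15B at -0.32 (-1.26 to 0.62), LEA4-5 at 0.65 (-1.03 to 2.33) and HIS1-3 at 0.06 (-0.53 to 0.65). The groups of all 4 overlapped, where 20.6% of all probe sets had groups that did not. The limma test called 0 of the 4 (0 at unadjusted p under 0.05), against 4.77% of all probe sets. Without the third phyA arrays HIS1-3 stood at 0.50 and passed (adjusted p = 0.0478), and COR15B turned to 0.15. For COR15A and LEA4-5 the intervals reach beyond 1, so a 2-fold difference in either direction lies within them. These widths include the high first shade array of both genotypes. Without the first shade arrays COR15A stood at 0.40 ± 0.335, against an SE of 0.720 with them, and LEA4-5 at 1.02 ± 0.690.

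In strong shade the means of HIS1-3 were 8.21 ± 0.341 in phyA and 7.37 ± 0.174 in WT (SD, n = 3 each), and its lowest phyA array at 7.98 was above its highest WT array at 7.55. The difference was 0.83 ± 0.277, a 1.78-fold change, but missed the threshold (limma adjusted p = 0.0659). Of all probe sets, 26.6% had groups that did not overlap and 11.7% were called, in either direction. With the 2 groups alone in the model HIS1-3 passed (0.0272), as it did with array weights (0.0298) and without the third phyA arrays (0.64, adjusted p = 0.00616). COR15A stood at -0.04, COR15B at 0.10 and LEA4-5 at 0.29, with adjusted p from 0.886 to 0.987, so 0 of the 4 were called and 1 had an unadjusted p under 0.05.

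Strong shade was then compared with shade, both under LEDs, which asks whether a lower red to far-red ratio, with dimmer red and brighter far-red light, moved the genes. In WT all 4 means were lower in strong shade. HIS1-3 went from 8.22 ± 0.206 to 7.37 ± 0.174 (SD, n = 3 each), a difference of -0.84 ± 0.277, and COR15B from 4.26 ± 0.855 to 3.27 ± 0.145, a difference of -0.99 ± 0.443. In both genes all strong shade arrays lay below all shade arrays, and 22.4% of all probe sets had groups that did not overlap in either direction. Neither passed the limma test over all 16 arrays (adjusted p = 0.178 and 0.337), which called 0.659% of all probe sets and 0 of the 4 genes (2 at unadjusted p under 0.05). HIS1-3 passed with the 2 WT groups alone in the model (0.012), with array weights (0.0342) and without the third phyA arrays (0.00092), which lowers the shared estimate of spread and leaves the WT difference as it was. COR15A stood at -0.82 ± 0.720 and LEA4-5 at -1.18 ± 0.789, and these values and that of COR15B depended on the first WT shade array. Without it COR15A stood at 0.12, LEA4-5 at -0.19 and COR15B at -0.49.

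In phyA the same step gave -1.24 ± 0.720 for COR15A, -0.57 ± 0.443 for COR15B, -1.53 ± 0.789 for LEA4-5 and -0.07 ± 0.277 for HIS1-3. All 4 genes had overlapping groups, where 7.68% of all probe sets had groups that did not. The limma test called 0 of them (0 at unadjusted p under 0.05) and 0% of all probe sets (adjusted p = 0.999 for each of the 4). The third arrays decide this outcome. On the third phyA shade array all 4 genes, with LEA4-5 at 2.59 and HIS1-3 at 7.38, were the lowest of their group, and on the third phyA strong shade array all 4 genes were the highest of theirs. Without both arrays LEA4-5 stood at -3.01 ± 0.655 (adjusted p = 0.0175) and HIS1-3 at -0.71 ± 0.152 (adjusted p = 0.0163), and 3.84% of all probe sets were called. These arrays were left out because they stand apart over all probe sets in a way that follows the same step, so the choice partly fixes this result. Without the first phyA shade array COR15A stood at -0.32, LEA4-5 at -0.92, COR15B at 0.04 and HIS1-3 at 0.17.

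The difference between genotypes in each response was also tested. In the response to shade the 4 genes stood between -0.66 (COR15B) and 0.63 (LEA4-5), with adjusted p from 0.828 to 0.969, and limma called 0 of the 4 against 1.05% of all probe sets. For strong shade the response of HIS1-3 stood at 0.87 ± 0.437 higher in phyA than in WT on the log2 scale, which missed the threshold (adjusted p = 0.369, 95% interval -0.06 to 1.80). The other 3 stood between -0.24 and 0.27, and 0 of the 4 were called against 3.66% of all probe sets. In the step from shade to strong shade HIS1-3 stood at 0.78 ± 0.391 (adjusted p = 0.721), and 0 of the 4 genes and 0% of all probe sets were called. In each of these 3 tests 0 of the 4 had an unadjusted p under 0.05.

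**Figure D3:**
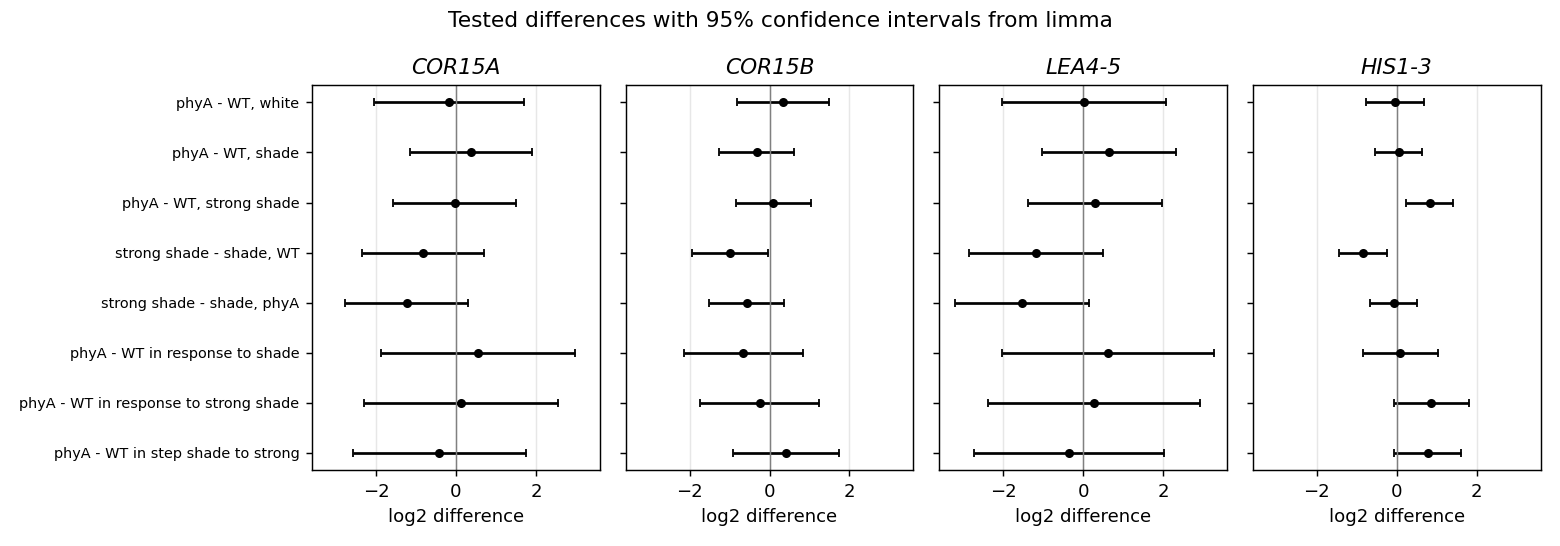
Log2 differences (horizontal axis) of the 4 genes in the 8 tested comparisons (vertical axis), with points as limma estimates from all 16 arrays and bars as 95% confidence intervals before any adjustment. The intervals of COR15A and LEA4-5 are about 3 or more log2 units wide, and those that leave out 0 are HIS1-3 in phyA against WT in strong shade, and HIS1-3 and COR15B in strong shade against shade in WT.

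The other genes of the LEA family were mostly dim. Of 48 other family members listed, 32 were measured, and 20 of these had a mean log2 intensity under 3 in all 6 groups, close to the dim end, where changes are compressed. In WT 3 rose and 1 fell in shade and 2 rose and 2 fell in strong shade against white light. In phyA 8 rose and 2 fell in shade and 5 rose and 3 fell in strong shade. Taken in either direction, the shares of 32 called were below those of all probe sets given above. By direction, the 8 that rose in phyA shade were a larger share than the 20.7% of all probe sets called higher there. The median of the 32 was 0.03 in WT shade and 0.06 in phyA shade, against -0.02 and 0.03 for all probe sets.

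In phyA M10 and AT2G23110 rose most, by 3.20 and 2.02 in shade and by 2.86 and 2.22 in strong shade, and neither was called in WT, where they stood at 0.99 and 0.90 in shade. The difference between genotypes in these responses was not called for M10 (limma adjusted p = 0.236 and 0.168 for shade and strong shade) or AT2G23110 (0.602 and 0.397). DI21, a drought-induced gene, rose in all 4 comparisons, by 0.77 and 1.02 in WT and by 0.55 and 0.80 in phyA. Its call in phyA shade (adjusted p = 0.0149) ended without either phyA white array, without phyA shade 3 or after cyclic loess (up to 0.0987), and that in WT shade without WT white 1 (0.0506). LEA4-1, of the same LEA group as LEA4-5, rose by 1.36 in WT shade (limma adjusted p = 0.000472) and by 1.63 in phyA shade (7.2e-05), and by 0.73 and 1.22 in strong shade. Its call in WT strong shade (adjusted p = 0.0312) ended without either WT white array, without WT strong shade array 1 or 3, or with a replicate block (up to 0.124). COR47, a cold- and drought-induced dehydrin gene, rose by 0.94 in WT shade, 1.44 in phyA shade and 1.06 in phyA strong shade, and stood at 0.11 in WT strong shade. Where called, it was opposite in sign to the mean differences of COR15A and COR15B. Those genes were chosen for their direction under LED light, so nothing is read from this contrast. In shade the COR15A groups also overlapped white light. AT2G46140 fell in all 4 comparisons, by 0.88 and 1.43 in WT and by 1.75 and 1.73 in phyA.

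Between genotypes 2 of the 32 LEA genes were called in each shade, against 4.77% and 11.7% of all probe sets. M10 was 4.58, 3.30 and 3.70 in WT shade and 6.67, 4.50 and 6.21 in phyA shade. The phyA mean was higher by 1.93 ± 0.467 (adjusted p = 0.0235), though 1 phyA array lay below the highest WT array. In strong shade M10 was higher in phyA by 1.77 ± 0.467 (adjusted p = 0.0199), with groups that did not overlap. Both calls ended when certain single arrays were left out, in shade WT 2 or 3 or phyA 1 or 3 and in strong shade WT 1 or 3 or phyA 1 or 2 (adjusted p up to 0.124 and 0.084). The shade call of M10 also ended with robust variance (limma adjusted p = 0.0606), only the groups compared (0.101) or without the first shade arrays (0.0605). COR47 was higher in phyA in strong shade by 0.85 ± 0.188 (adjusted p = 0.00658) and kept its call in all settings tried. AT2G46140 was lower in phyA in shade at -0.72 ± 0.162 (adjusted p = 0.0141), a call lost without WT shade 2, phyA shade 1 or phyA shade 3 (up to 0.0867).

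Several LEA genes, picked after their values were seen, followed the array pattern of LEA4-5, and others did not. AT3G17520 was 4.12, 2.41 and 2.18 in WT shade and 4.25, 3.58 and 2.16 in phyA shade, and lay between 1.82 and 2.07 in white light. AT3G02480 was 5.33, 3.03 and 3.05 in WT shade, 5.48, 5.23 and 2.58 in phyA shade, and 2.80, 2.84 and 5.60 in phyA strong shade. LEA18 was 3.24, 2.29 and 2.31 in WT shade and 3.03, 3.29 and 2.42 in phyA shade. In all 3 genes the first WT shade array and the first 2 phyA shade arrays were the high ones, and the third phyA strong shade array was above the other 2 of its group. Among those that did not follow it, AT2G23110 was 3.24, 4.58 and 4.84 and M10 was 6.67, 4.50 and 6.21 in phyA shade. On the third phyA strong shade array AT2G23110 and M10 were the lowest of their group (3.59 and 4.61). With the margin of 0.5 used above, 1 of the 32 LEA genes (AT3G17520) was higher on the first array in both genotypes. With no margin it was 10 of 32 (31.2%), against 12% of all probe sets, and most of the 32 are dim.

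**Figure D4:**
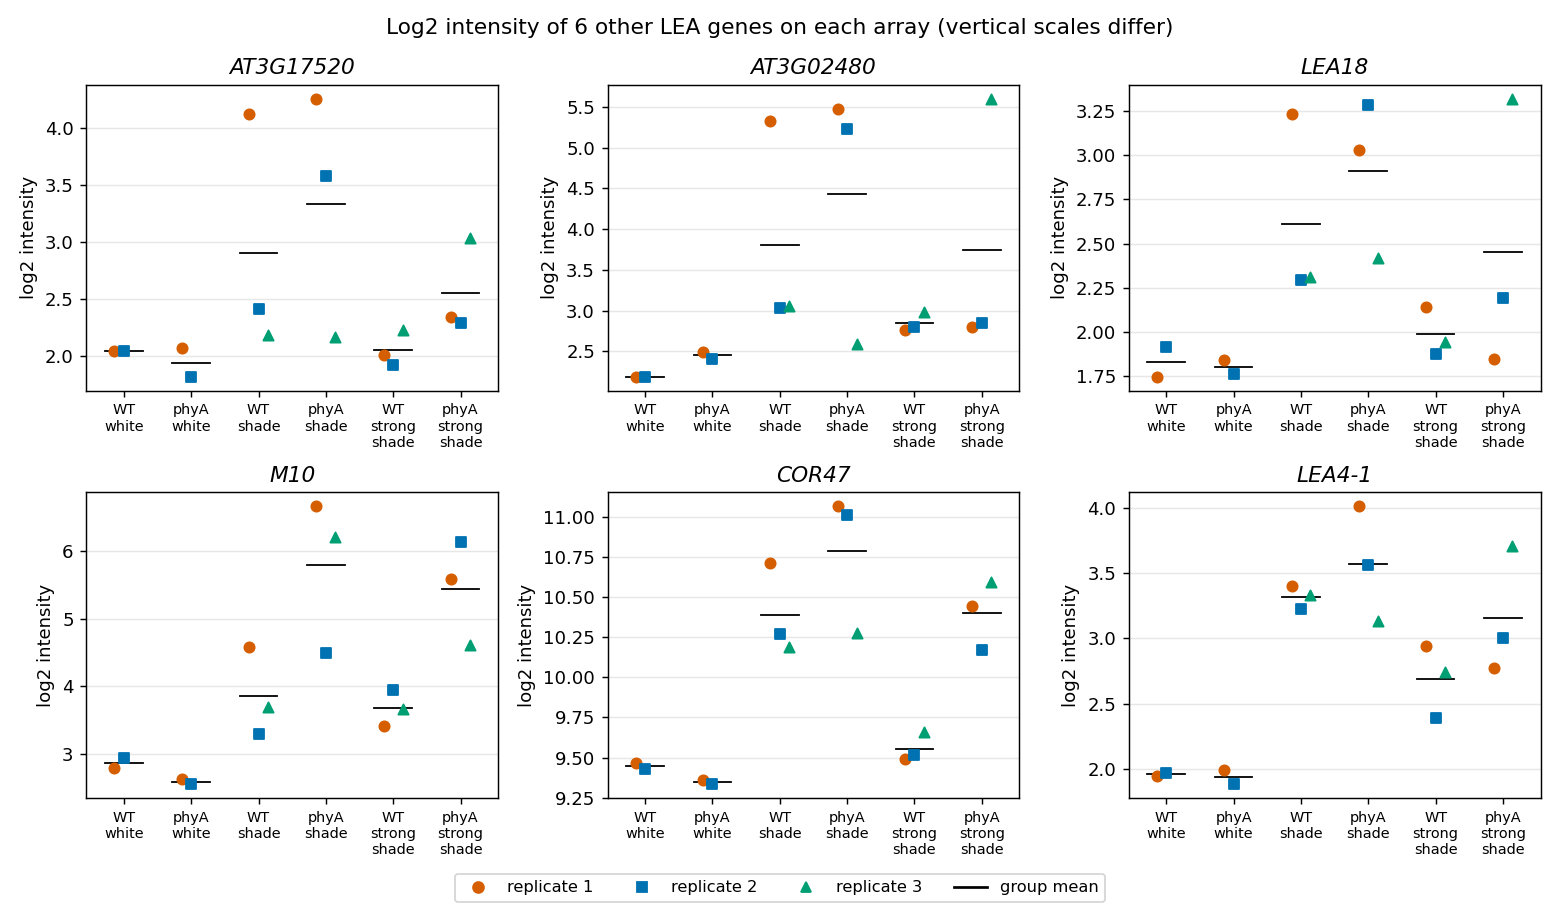
Log2 intensity (vertical axes, which differ between panels) of 6 other LEA genes on each array by group, with replicate numbers as colours and shapes and group means as black bars. AT3G17520, AT3G02480 and LEA18 are high on the first WT shade array and the first 2 phyA shade arrays. AT3G02480 and LEA18 are highest on the third phyA strong shade array. M10 and COR47 are higher in phyA than in WT in strong shade.

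**Figure D5:**
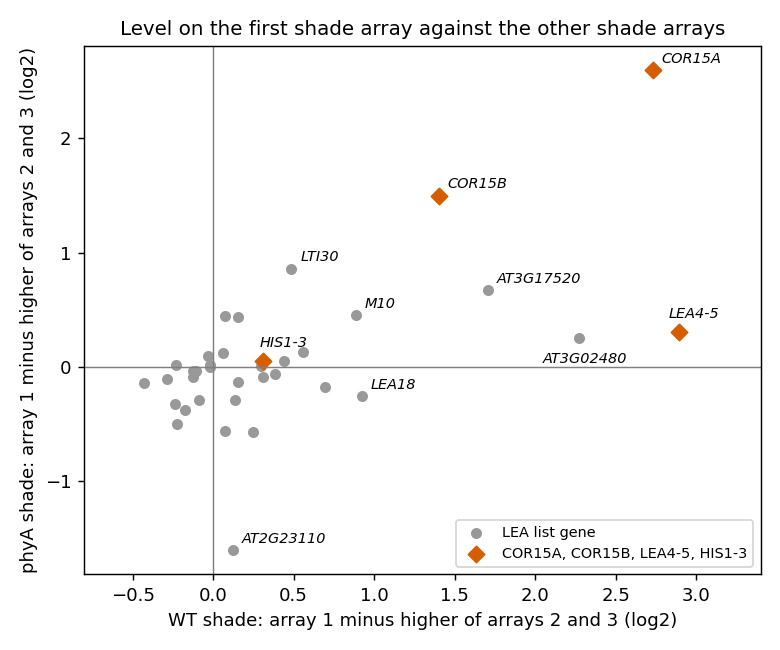
For the 32 LEA list genes (grey) and the 4 genes described (orange), the log2 intensity of the first shade array minus that of the higher of the other shade arrays, in WT (horizontal axis) and phyA (vertical axis). COR15A lies furthest to the upper right at 2.73 and 2.60, and most LEA genes lie near 0.

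Other linker histone genes differed from white light by less than HIS1-3 did, in log2 values. HIS1-3 was chosen for its direction under LED light, so nothing is read from this contrast. H1.1 and H1.2 encode the main linker histones, and HON4 encodes a protein with the same DNA-binding domain; these are the 3 measured of 8 listed. H1.1 was bright in all groups, with means from 8.61 to 9.33. It rose by 0.46 in WT strong shade (adjusted p = 0.0132), 0.55 in phyA shade and 0.72 in phyA strong shade. H1.2 rose by 0.59 in WT strong shade and 0.49 in phyA strong shade. HON4 rose in all 4 comparisons with white light, by 1.03 to 1.52. In total 1 rose in WT shade, 3 in WT strong shade, 2 in phyA shade and 3 in phyA strong shade. Of all probe sets, 16.9%, 18%, 20.7% and 21.7% were called higher there, and 36.4%, 39.2%, 40.8% and 42% in either direction. The call of H1.1 in WT strong shade ended after cyclic loess (0.0768) or without WT white 1 (0.0872), and that of H1.2 in phyA strong shade after cyclic loess (0.08), with only the groups compared (0.0593) or without phyA white 2 (0.0687). None of the 3 was called between genotypes or between the shades by limma (0 called, 0% of all probe sets in the phyA step).

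Of 20 listed cold-regulon genes, 3 were measured. Besides COR47, ZAT10, which encodes a zinc finger repressor induced by many stresses, rose in all 4 comparisons with white light, by 1.32 and 1.92 in WT and by 2.15 and 2.11 in phyA. The dehydrin gene LTI30 was not called in any comparison, with means from 7.10 to 7.54. Of 48 listed ABA and drought genes 1 was measured, OSM34, an osmotin-like gene. It rose in shade by 2.09 in WT and 3.81 in phyA, from means of 6.47 and 4.45 in white light to 8.56 and 8.26. In white light it was lower in phyA, at -2.02 ± 0.223 (limma adjusted p = 0.000726), a call that ended with only the groups compared in the model (0.0647).

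The genes with the most similar pattern were found by Pearson r over log2 values, as a measure of likeness only. A few high arrays can raise this value. By Spearman rho, which uses ranks, most of these genes were not among the 3 most similar. The exceptions were AT1G24600 for COR15A, AT5G53710 for LEA4-5, and AT1G53560 and AT2G26690 for HIS1-3. Over all 16 arrays, which fall into white-light and LED arrays, HIS1-3 was most like AT4G16190, CCL and AT1G05340 (r = 0.989, 0.989 and 0.988). Over the 12 LED arrays it was most like AT1G53560, AT3G47295 and AT2G26690 (r = 0.97, 0.965 and 0.961), which stayed at 0.95 to 0.96 without the first shade arrays. AT1G05340 rose from 4.21 to 8.45 between WT white light and WT shade, the nearest in size to HIS1-3 among them.

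LEA4-5 was most like AT3G17520, the sugar transporter gene SWEET4 and AT5G53710 over 16 arrays (r = 0.971, 0.94 and 0.931). Over the LED arrays the first 2 of these led (0.973 and 0.965), followed by AT1G79970 (0.958). Each of the LED values was 0.924 to 0.936 without the first shade arrays. By Spearman rho over 16 arrays, AT3G17520 and SWEET4 ranked 101 and 360 for LEA4-5 (0.724 and 0.606), and AT5G53710 ranked 2 (0.894). COR15A ranked 553.5 for COR15B (0.776). For the COR15 genes the likeness over the LED arrays depended on the first shade arrays. There COR15A was most like AT4G38810, AT1G24600 and COR15B (r = 0.943, 0.935 and 0.924), and without the first shade arrays these values fell to 0.537, 0.799 and 0.392. COR15B was most like AT4G38810, UGT84A3 and COR15A (0.946, 0.926 and 0.924), and without those arrays at 0.601, 0.724 and 0.392. Over 16 arrays COR15A was most like AT5G26200, COR15B and AT1G68570 (0.927, 0.92 and 0.841), and COR15B like COR15A, AT1G20070 and AT5G01910 (0.92, 0.909 and 0.906). Without the first shade arrays these values did not fall except for AT5G26200 (0.88): they were 0.943 between COR15A and COR15B, 0.853 for AT1G68570, 0.951 for AT1G20070 and 0.973 for AT5G01910.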

How the data were processed

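RNA of whole seedlings was hybridised to 16 arrays. The authors deposited 1 intensity per probe set and array, made by RMA with affy, per the submitters' processing notes, where no version was found. They ranged from 2.33 to 6167, which fits a linear scale. Their log2 was used, with no pseudocount, further scaling or filter. RMA compresses dim signals, and the number of arrays limits the precision.

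Of the 22746 probe sets, 13513 had 1 gene, 503 several and 8730 none listed. The TAIR10.1 gene table, used for names and neighbours only, held 13436 of the 13513. The genes described, the lists and the comparisons were chosen with earlier results of these data known. In limma 3.58.1 (R 4.3.3), group means over the 16 arrays were estimated with lmFit and eBayes, which left 10 residual degrees of freedom, and the code was tested on simulated data. P-values were adjusted by Benjamini-Hochberg over the 22746 probe sets, separately for each comparison, and calls were made at an adjusted p under 0.05. For listed genes with more than 1 probe set, the brightest was taken. The text could name up to 4 called genes of largest change from each list in a comparison, any measured LEA or linker histone gene, and the 3 most similar genes per gene and array set. Genes named outside this rule are marked as such.

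Promoter and protein sequences were not used here. Alternatives were median centring, cyclic loess, a filter on the dimmest 40%, robust or trended variances, array weights, only the groups compared, a replicate block, a log2 difference of at least 1, and leaving out each array or the third phyA arrays. Leaving out the first shade arrays was added after the data were seen.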

Additional observations from a re-analysis of the deposited data

Results flagged for a closer look

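Groups held 2 or 3 arrays, too few to test a single array as an outlier. Among the genes described and the measured list genes, 2 differed between genotypes by limma's test of the difference itself. Genes named only for likeness or for the first shade array were not part of this check. OSM34 rose more in phyA than in WT, by 1.72 ± 0.288 in shade (adjusted p = 0.00631) and by 1.80 ± 0.288 in strong shade (adjusted p = 0.00162), from a white-light level that was lower in phyA (4.17 and 4.73 against 6.84 and 6.11 in WT). The shade value missed the threshold without phyA white 1 (adjusted p = 0.0596). RCA fell more in phyA than in WT in strong shade, at -1.37 ± 0.246 (adjusted p = 0.00373), and held its call in all settings tried.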

How the results depend on the processing

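Of 832 member values under alternatives, 765 were counted as unchanged. In the tested comparisons these kept direction and side of the threshold. Against white light, where the 4 genes were not tested, they moved by less than the gene's spread between replicates. That spread includes the high first shade arrays. COR15A in WT shade, at -1.41 with them and -2.36 without, therefore counted as unchanged. Robust or trended variance, the dim filter and only the groups compared leave a difference of group means as it was. The count is therefore no measure of how stable the values are. With the third phyA arrays left out, HIS1-3 passed in phyA against WT in shade (0.50, adjusted p = 0.0478) and strong shade (0.64). It also passed in the WT step from shade to strong shade (-0.84) and in the phyA step (-0.71). LEA4-5 passed in the phyA step (-3.01), so that 1, 1, 1 and 2 of the 4 genes were called. Of all probe sets, 5.51%, 12.8%, 6.25% and 3.84% were called in the same comparisons and setting. Signs turned there for COR15B in phyA against WT in shade (0.15) and strong shade (-0.095), LEA4-5 in strong shade (-0.12), the genotype difference in the response to strong shade of COR15A (-0.19) and LEA4-5 (-0.14), and that in the step of COR15B (-0.25), and HIS1-3 in phyA shade against white light moved to 6.002. Array weights called HIS1-3 in phyA against WT in strong shade (0.70) and in the WT step (-0.78), 1 gene in each, and turned COR15B in shade (0.14), COR15A in the response to strong shade (-0.014) and COR15B in the step (-0.095). With only the groups compared, HIS1-3 passed in the same pair (0.83 and -0.84), 1 gene in each. For array weights and for only the groups compared, the share of all probe sets called was not counted. Without the first shade arrays, signs turned for HIS1-3 in phyA against WT in shade (-0.062), the phyA step (0.17) and the response to shade (-0.024), COR15A in the WT step (0.12) and COR15B in the phyA step (0.038). The cause was not tested.

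Leaving out 1 array at a time made no call on the 4 genes. The values below changed sign, except HIS1-3 in phyA shade against white light, which moved by more than the spread between replicates; others moved widely within 1 sign, such as LEA4-5 in phyA against WT in shade (0.039 to 1.72). For phyA against WT in white light COR15A ranged from -0.47 to 0.14, LEA4-5 from -0.14 to 0.18 and HIS1-3 from -0.15 to 0.073. In shade COR15A ranged from -0.54 to 1.32, COR15B from -0.93 to 0.17 and HIS1-3 from -0.18 to 0.50. In strong shade COR15A ranged from -0.36 to 0.21, COR15B from -0.095 to 0.30 and LEA4-5 from -0.12 to 0.54. COR15A ranged from -1.35 to 0.12 in the WT step, and in the phyA step COR15B ranged from -1.04 to 0.038 and HIS1-3 from -0.51 to 0.17. For the genotype difference in the response to shade COR15A ranged from -0.37 to 1.49 and HIS1-3 from -0.14 to 0.54, and in that to strong shade COR15A from -0.19 to 0.43 and LEA4-5 from -0.14 to 0.52. For that in the step COR15A ranged from -1.36 to 0.50, COR15B from -0.077 to 1.03 and LEA4-5 from -1.43 to 0.25. HIS1-3 in phyA shade against white light ranged from 5.32 to 6.002.

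LEA genes called ranged over the alternatives from 0 to 3 (2 in the reported setting) between genotypes in shade, 1 to 5 (2) in strong shade, 0 to 5 (0) in the WT step, 0 to 4 (0) in the phyA step, and 0 to 1 and 0 to 2 (0) for the genotype difference in the responses to shade and strong shade. Against white light they ranged from 1 to 8 (4) and 2 to 8 (4) in WT shade and strong shade, and from 6 to 12 (10) and 5 to 9 (8) in phyA. Over all probe sets, leaving out the third phyA arrays raised the calls in the WT step from 150 to 1421 and in the phyA step from 0 to 874. Same-numbered arrays deviated together by r = 0.00 to 0.32 between genotypes except -0.05 for strong shade array 1, and by -0.58 to -0.04 between the shades, and 4 of 6 arrays in each shade, and 0 of 6 in each step, correlated best with their own number. The numbers were not used as pairs in the reported setting. Whether same-numbered arrays of WT and phyA form pairs was not tested, and a paired fit of the genotype comparisons alone was not run. A replicate block moved the calls in the WT step from 150 to 108, gave HIS1-3 0.83 in phyA against WT in strong shade, and changed no call on the 4 genes. Promoter motifs were not run, and no gene had several probe sets to choose from.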
